A study of Mus musculus with 2 samples.

Results

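The mature miRNAs that circulate in plasma and often serve as reference miRNAs were represented by 7 members, followed in exosomes of polarised mouse macrophages: mmu-miR-423-5p, mmu-miR-423-3p, mmu-miR-320-3p, mmu-miR-484, mmu-miR-185-5p, mmu-miR-191-5p and mmu-miR-22-3p (the mouse prefix mmu is left out from here on). They were chosen by name, all 7 were found among the 1976 miRNAs listed, and the question was how near each stayed to the same level in the 2 libraries. Bone marrow cells of C57BL/6 mice aged 5 to 6 weeks were grown for 7 days with M-CSF at 10 ng/mL. They were then held for 1 day with 20 ng/mL of IFN-γ (M1) or of IL-4 (M2), followed by 2 days in serum-free medium from which exosomes were collected. Both groups share the strain, the M-CSF and the serum-free step and differ in the cytokine. Each group is 1 library, and the number of mice behind it is not stated. No value has a replicate error, no test of the conditions was possible, and each difference compares 2 libraries.

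A miRNA is cut from a hairpin precursor, and 1 or both arms of the hairpin can be kept as mature strands (5p and 3p) that guide Argonaute to target mRNAs through a seed near the 5′ end. Exosomes are small vesicles that carry some of these strands out of the cell. No housekeeping RNA is generally accepted for them, so broadly expressed plasma miRNAs are often used as a reference, which sets the reference's own difference between samples to 0. miR-320 and miR-484 are unusual in that their precursors begin at a capped transcription start and bypass Drosha. miR-191 is transcribed together with miR-425. miR-22 is known from blood cell development, and miR-185 lies in the region lost in DiGeorge syndrome.

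Mature sequences were found for 5 of the 7 members and are shown because both arms of 1 hairpin are among them and because the seeds tell whether members could share targets. Sequences are from RefSeq (GRCm38.p6), 5′ to 3′, and the capitals mark the seed, bases 2 to 8.
miR-423-5p: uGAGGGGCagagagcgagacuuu
miR-423-3p: aGCUCGGUcugaggccccucagu
miR-484: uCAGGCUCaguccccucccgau
miR-191-5p: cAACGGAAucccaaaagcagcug
miR-22-3p: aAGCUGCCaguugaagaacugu
The mature sequences of miR-320-3p and miR-185-5p are named only. Among the 1677 listed miRNAs with a sequence, the seed of miR-423-5p was shared with miR-6921-5p, which was listed at 0 in both libraries. The seeds of miR-423-3p, miR-484, miR-191-5p and miR-22-3p were shared with none of them, so no pair of these 5 members had a common seed. The 2 members from 1 hairpin thus carried different seeds.

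The members came from 6 hairpins on 4 chromosomes (GRCm38). Mir423 lies at chr11:77078064-77078172, in an intron of Nsrp1, a splicing regulator, on the same strand. Mir22 lies at chr11:75463716-75463810, in exon 2 of its host transcript Mir22hg, which a Tlcd2 transcript shares. Mir191 lies at chr9:108568319-108568392, in an exon of the long noncoding RNA 4833445I07Rik, 384 bases before Mir425 in the same exon, and an entry named Gm24083 covers it on the opposite strand. Mir185 lies at chr16:18327401-18327465, in an intron of Tango2. Mir484 lies at chr16:14159626-14159692 and partly overlaps an exon of Marf1 on the opposite strand. Mir320 lies at chr14:70443510-70443591 and overlaps no other annotated gene. The sources used here do not say whether the counting used strand.

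The deposited values are log2(level + 1), with the level in units of a scale that the sources do not name. The sum of all levels was 686353 units in the M1 library and 734637 units in the M2 library. Read totals were not analysed here. At low levels 1 read was worth about 0.80 units in the M1 library and 1.22 units in the M2 library, so equal low values stand for more reads in the M1 library than in the M2 library. Only miRNAs that reached a level of 10 units in 1 or both libraries were compared, which held for 337 miRNAs and for all 7 members. The members lay well above that minimum, with at least 100 units in both libraries for 7 of 7. The log2 ratio is the M1 value minus the M2 value, and a difference of at least 1 in size (2-fold) was counted. The median log2 ratio of the 337 was 0.04, with an SD over miRNAs of 1.59.

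Of the members, 5 were higher in M1 exosomes and 2 were marginally higher in M2 exosomes. A log2 ratio above 0 was found for 171 of all compared miRNAs and one below 0 for 166. For compared miRNAs averaging at least 100 units these numbers were 83 and 71. Of the 7, 2 were at least 2-fold higher in the M1 library (miR-423-3p and miR-22-3p), 0 were at least 2-fold higher in the M2 library, and 5 lay within 2-fold. Over all compared miRNAs 26.1% were at least 2-fold higher in the M1 library and 22.8% in the M2 library, which is 49% in either direction, against 28.6% of the members. Among the 154 compared miRNAs averaging at least 100 units, a range nearer to that of the members, the share past 2-fold in either direction was 41.6%. The median log2 ratio of the members was 0.50 (SD over members 0.64), above the 0.12 of those 154. Centred at the median ratio of similar levels, the median of the members was 0.09, or 0.15 with the members left out of the neighbours. The summed level of the 7 was 9136 units in the M1 library and 5606 units in the M2 library, or 1.33% and 0.763% of the library.

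**Figure D1:**
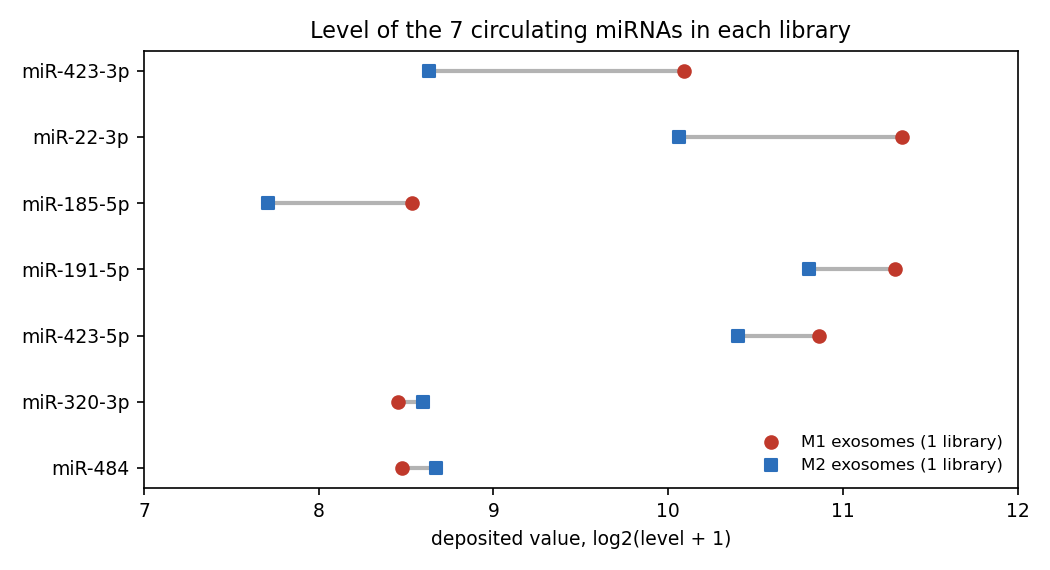
Deposited log2(level + 1) value (x axis) of each of the 7 miRNAs (y axis) in M1 exosomes (circles) and M2 exosomes (squares), 1 library each, joined by a line. The gap is smallest for miR-320-3p and miR-484 and largest for miR-423-3p, at 10.09 against 8.63.

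On the deposited scale the members nearest to the same level were the pair whose precursors bypass Drosha. miR-320-3p, the product of the 3′ arm of its hairpin, stood at 349.9 units in the M1 library and 386 units in the M2 library, a log2 ratio of -0.14 (1.10-fold higher in the M2 library). miR-484 stood at 355 and 407 units, a log2 ratio of -0.20 (1.14-fold higher in the M2 library). Among the 154 miRNAs averaging at least 100 units, 10 had a ratio nearer to 0 than miR-320-3p and 17 had one nearer to 0 than miR-484. These 2 members were also close to each other in level. miR-320-3p lay 0.02 below miR-484 on the log2 scale in M1 exosomes and 0.07 below it in M2 exosomes, so their difference moved by 0.05. Scaled to the library sums, their ratios were -0.05 and -0.10. By level they ranked 99th and 98th of the M1 library, and 91st and 87th of the M2 library.

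miR-423-5p and miR-191-5p, both long used as normalisers, formed a second pair, moderately higher in M1 exosomes. miR-423-5p stood at 1864 units in the M1 library and 1352 units in the M2 library, a log2 ratio of 0.46 (1.38-fold), and ranked 41st in both libraries. miR-191-5p stood at 2520.4 and 1788 units, a log2 ratio of 0.50 (1.41-fold), and ranked 33rd and 36th. The difference between these 2 members changed by 0.03 between the libraries, the smallest change of the 21 pairs of members. Of the 154 miRNAs at 100 units or more, 48 had a ratio nearer to 0 than miR-423-5p and 51 had one nearer to 0 than miR-191-5p. Their distance from 0 depended on how level was treated. Centred at the median ratio of all compared miRNAs within 2-fold of the same mean level, the members included, miR-191-5p had a log2 ratio of 0.03 and miR-423-5p one of 0.09, beside -0.04 for miR-320-3p and -0.15 for miR-484. With the members left out of that median the values were 0.11, 0.15, -0.07 and -0.15. Which of miR-191-5p and miR-320-3p lay nearer to 0 after such centring thus turned with the choice of neighbours.

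miR-185-5p, the least abundant member in M2 exosomes, lay within 2-fold but past 1.5-fold. It stood at 369 units in the M1 library and 209 units in the M2 library, a log2 ratio of 0.82 (1.77-fold higher in the M1 library). It ranked 97th and 123rd. Its M1 level was close to those of miR-320-3p and miR-484, and its M2 level was the lowest of the 7. With 1.5-fold as the limit, 4 of 7 members lay inside it, which are miR-320-3p, miR-484, miR-423-5p and miR-191-5p, and the other 3 were past it and higher in M1 exosomes. Over all compared miRNAs 66.8% were past 1.5-fold in either direction, and 61.7% of the 154 averaging at least 100 units. Scaled to the library sums, the log2 ratio of miR-191-5p was 0.59, just past 1.5-fold.

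The members past 2-fold were miR-22-3p and miR-423-3p. miR-22-3p, the most abundant member in M1 exosomes, stood at 2589 units there and 1069 units in M2 exosomes, a log2 ratio of 1.28 (2.42-fold). It ranked 31st in M1 exosomes and 46th in M2 exosomes. Centred at the median ratio of miRNAs of similar level, its log2 ratio was 0.85 and it was no longer past 2-fold. miR-423-3p stood at 1088 and 395 units, a log2 ratio of 1.46 (2.75-fold), and ranked 55th and 89th. Its M1 level was about that of miR-22-3p in M2 exosomes, and its M2 level was near those of miR-320-3p and miR-484 there. Of the 154 miRNAs, 107 had a ratio nearer to 0 than miR-22-3p and 116 had one nearer to 0 than miR-423-3p.

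**Figure D2:**
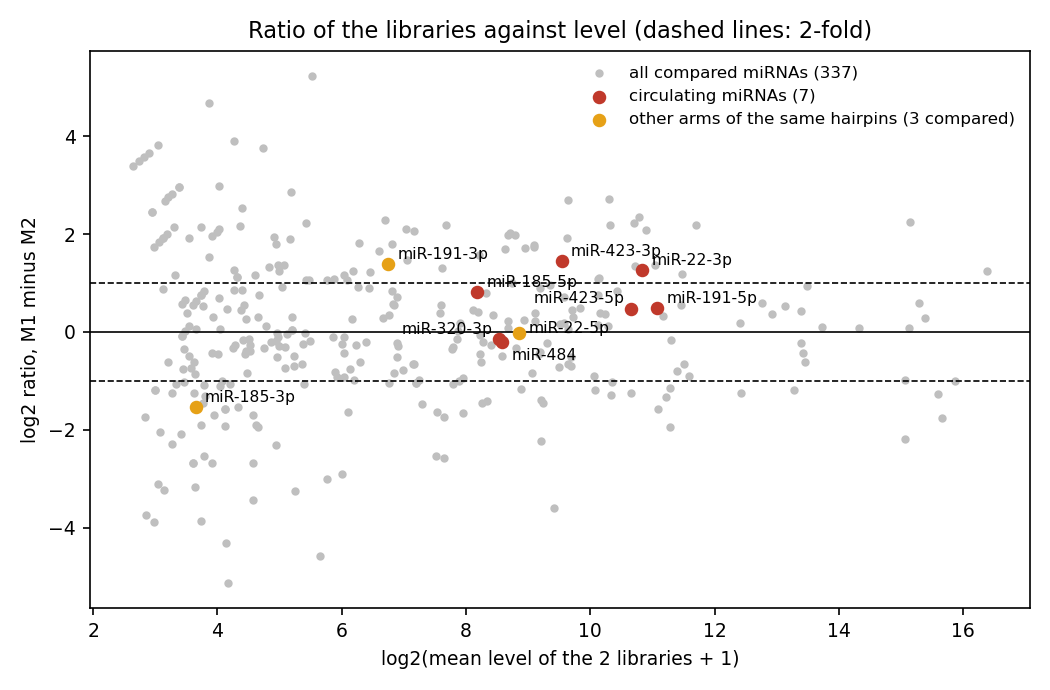
Log2 ratio, M1 minus M2 (y axis), against the log2 of the mean level plus 1 (x axis) for the 337 compared miRNAs (grey), the 7 circulating miRNAs (red) and the 3 compared other arms of their hairpins (orange), with dashed lines at 2-fold. Of the red points 2 lie above the upper line and 0 below the lower one.

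Arms of 1 hairpin are cut from the same transcript, so each pair of arms was set side by side. The 3 hairpins of members with a sequence for both arms are shown with the mature arms in capitals, the 5p arm first (RefSeq, GRCm38.p6).
Mir423: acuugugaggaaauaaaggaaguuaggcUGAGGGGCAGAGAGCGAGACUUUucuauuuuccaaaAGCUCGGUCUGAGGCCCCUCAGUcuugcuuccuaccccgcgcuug
Mir22: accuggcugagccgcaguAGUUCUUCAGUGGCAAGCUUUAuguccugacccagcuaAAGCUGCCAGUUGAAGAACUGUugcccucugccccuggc
Mir191: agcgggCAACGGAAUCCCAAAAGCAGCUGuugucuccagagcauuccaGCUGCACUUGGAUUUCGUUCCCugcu
The capitals on the left and right of Mir423 are the 2 members miR-423-5p and miR-423-3p. For Mir22 the member is the right arm, and for Mir191 the left one.

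In each hairpin with both arms above 0, the arms differed between libraries by different amounts. miR-423-5p exceeded miR-423-3p by 0.78 on the log2 scale in M1 exosomes and by 1.77 in M2 exosomes, so the 5p arm held 63.1% of the summed level of the hairpin in M1 exosomes and 77.4% in M2 exosomes. The 5p arm was the higher in both libraries, and its lead was smaller in M1 exosomes. miR-22-3p exceeded miR-22-5p by 2.49 in M1 exosomes and by 1.20 in M2 exosomes, or 84.9% against 69.7% of the hairpin. The other arm, miR-22-5p, stood at 459 and 465 units, a log2 ratio of -0.02, and 0 of the 154 miRNAs averaging at least 100 units had a ratio nearer to 0. Under 4 other scalings the ratio of miR-22-5p lay between -0.10 and 0.08, with up to 16 of the 154 nearer to 0. On the deposited scale the hairpin of Mir22 thus gave 1 arm past 2-fold and 1 arm at nearly the same level in both libraries. Centred at similar levels, miR-22-3p had 0.85 and was not past 2-fold.

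The minor arms of Mir191 and Mir185 moved apart from their members as well, at lower levels. miR-191-3p stood at 154 and 58.2 units, a log2 ratio of 1.39, against 0.50 for miR-191-5p, which held 94.2% of the hairpin in M1 exosomes and 96.8% in M2 exosomes. miR-185-3p stood at 5.46 and 17.6 units, a log2 ratio of -1.53, opposite in sign to the 0.82 of miR-185-5p. Its M1 level was worth about 7 reads, so the size of that ratio is uncertain. The 5p arm of miR-320 was at 0 in both files, and by counting error alone such a 0 is compatible with 3 reads, worth 2.40 units in the M1 library and 3.67 in the M2 library. Of the 3 other arms compared, 1 was at least 2-fold higher in the M1 library and 1 in the M2 library, and 1 lay within 2-fold. Over all compared miRNAs the shares were 26.1% for M1 and 22.8% for M2, and 3 arms are too few to compare with them.

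**Figure D3:**
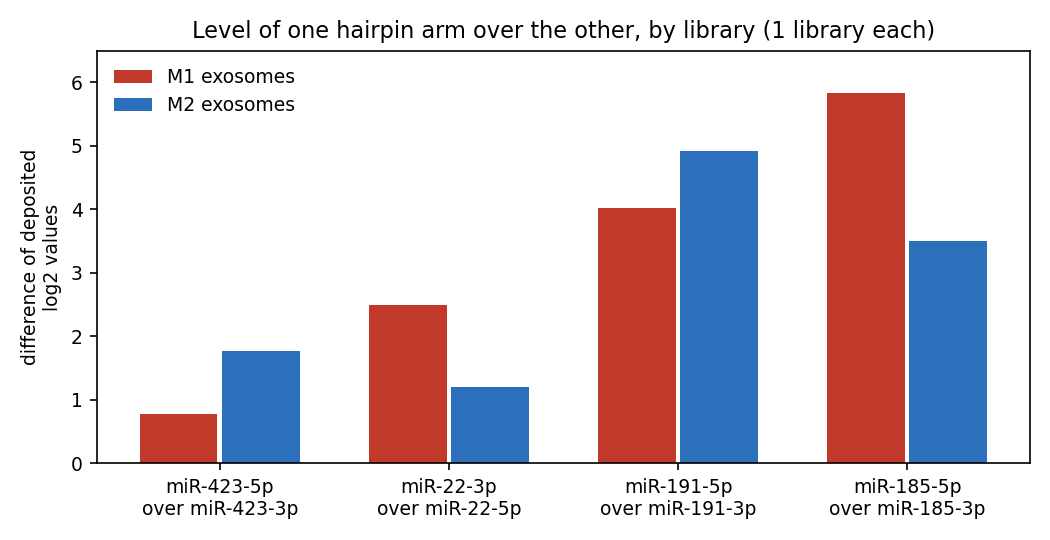
Difference of the deposited log2 values between the member named first and the arm named second (y axis) for 4 hairpins (x axis), in M1 exosomes (red bars) and M2 exosomes (blue bars), 1 library each. The difference is smaller in M1 exosomes for miR-423 (0.78 against 1.77) and miR-191, and larger there for miR-22 (2.49 against 1.20) and miR-185.

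The transcript of miR-191 gave a further comparison. miR-425-5p, from the neighbouring hairpin in the same exon, stood at 764 units in the M1 library and 407 units in the M2 library, a log2 ratio of 0.91 against 0.50 for miR-191-5p. Both were higher in M1 exosomes and both lay within 2-fold. miR-425-3p was low, at 15.9 and 8.92 units, with a log2 ratio of 0.77. Its M2 level was worth about 7 reads, so the size of that ratio is uncertain. All 4 mature strands of these 2 hairpins were higher in M1 exosomes, by log2 ratios between 0.50 and 1.39.

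Differences between members do not depend on how the libraries were scaled, apart from a scaling that depends on level. Such a scaling was assumed for these values, so the pair changes given here hold on the deposited scale only. For example, miR-320-3p and miR-191-5p had ratios of -0.14 and 0.50 as deposited. Centred at the median ratio of similar levels, the members included, they had -0.04 and 0.03. Of the 21 pairs of members, 6 kept their difference within 1.5-fold, 5 changed by at least 2-fold, and the median absolute change was 0.69 on the log2 scale. The largest change was 1.65, for miR-423-3p against miR-484. In M1 exosomes miR-423-3p lay 1.61 above miR-484, and in M2 exosomes it lay 0.04 below it. The order within a pair turned for 5 of the 21. The mean absolute change over the 6 pairs of a member was lowest for miR-191-5p, at 0.57, and for miR-423-5p, at 0.58. It was 0.63 for miR-185-5p, 0.85 for miR-22-3p, 0.88 for miR-320-3p, 0.92 for miR-484 and 1.01 for miR-423-3p. The 2 measures therefore ordered the members differently. miR-320-3p and miR-484 lay nearest to a ratio of 0 on the deposited scale, while miR-191-5p and miR-423-5p lay nearest to the other members, whose ratios were mostly above 0.

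Each member was then used as the reference for all 337 miRNAs by subtracting its log2 ratio. As deposited, 88 miRNAs were at least 2-fold higher in the M1 library and 77 in the M2 library. With miR-320-3p as the reference these numbers were 97 and 65, and with miR-484 they were 102 and 60. Both kept more miRNAs on the M1 side than on the M2 side. With miR-423-5p they were 61 and 111, and with miR-191-5p 60 and 114, so that the larger number lay on the M2 side. With miR-185-5p they were 50 and 151, with miR-22-3p 23 and 190, and with miR-423-3p 19 and 210. The share of the called miRNAs that were higher in M1 exosomes thus ran from 63.0% with miR-484 to 8.30% with miR-423-3p, against 53.3% as deposited. With the mean of all 7 members as the reference it was 31.7%, from 58 and 125 miRNAs. The total past 2-fold was 162 with miR-320-3p and 229 with miR-423-3p, or 48.1% and 68% of those compared. A reference moves all ratios by the same amount, so these counts follow from the size and sign of its own ratio.

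**Figure D4:**
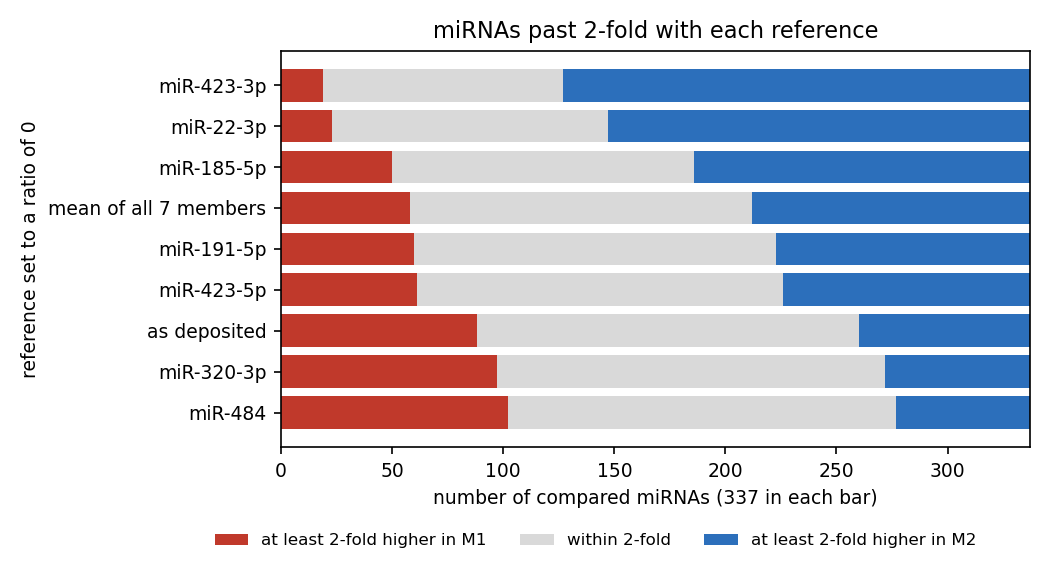
Number of the 337 compared miRNAs (x axis) at least 2-fold higher in the M1 library (red), within 2-fold (grey) and at least 2-fold higher in the M2 library (blue) as deposited, with each member as the reference and with the mean of all 7 (y axis). The red part falls from 102 miRNAs with miR-484 to 19 with miR-423-3p.

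A list of 22 other miRNAs used as references in blood, vesicle or cell studies was described in the same way. All 22 were compared, 2 were at least 2-fold higher in the M1 library, 4 were at least 2-fold higher in the M2 library and 16 lay within 2-fold. The share past 2-fold was 27.3%, beside the 28.6% of the 7 members and the 41.6% of all compared miRNAs averaging at least 100 units. Their median log2 ratio was 0.13 (SD over members 1.04), which was -0.03 when centred at the median ratio of similar levels, so it has no settled sign. The 5 nearest to 0 were let-7i-5p at 0.09, miR-24-3p at 0.10, miR-186-5p at 0.17, miR-140-3p at 0.17 and miR-125a-5p at -0.20. Of these, let-7i-5p and miR-24-3p were abundant, at 15.17 and 13.79 on the log2 scale in the M1 library against 15.08 and 13.68 in the M2 library. Both had a ratio nearer to 0 than any of the 7 members on the deposited scale, but not when scaled to the library sums, where let-7i-5p had 0.19 and miR-24-3p had 0.20. Scaled to the sum without the 10 most abundant miRNAs they had 0.02 and 0.03, against -0.21 for miR-320-3p. Centred at the median ratio they had 0.05 and 0.06, against -0.18. Under these 2 scalings both again lay nearer to 0 than any of the 7 members. Centred at similar levels, let-7i-5p had 0.55. miR-24-3p had 0 there because its own ratio was the median of its level window, so that value tells nothing about its stability.

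The reference miRNAs past 2-fold included several in wide use. let-7a-5p, whose reads may be split with near-identical let-7 family members, had a log2 ratio of -1.25, at 11.67 in M1 exosomes and 12.92 in M2 exosomes. miR-26a-5p had -1.24, miR-148b-3p -1.29 and miR-142a-3p, a strand typical of blood cells, -1.07. On the other side were miR-30e-5p at 1.70 and miR-151-5p at 2.87, the latter at a lower level of 62.6 and 7.72 units. miR-103-3p, among the most used references, lay next to the 2-fold line at -0.995 (157 against 313 units), and miR-16-5p had -0.41. miR-16-5p is also abundant in red blood cells. When the libraries were scaled to their sums, 4 of the 22 were at least 2-fold higher in the M1 library and 3 in the M2 library. Scaled to the sum without the 10 most abundant miRNAs, or centred at the median, 2 were higher in the M1 library and 6 in the M2 library.

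**Figure D5:**
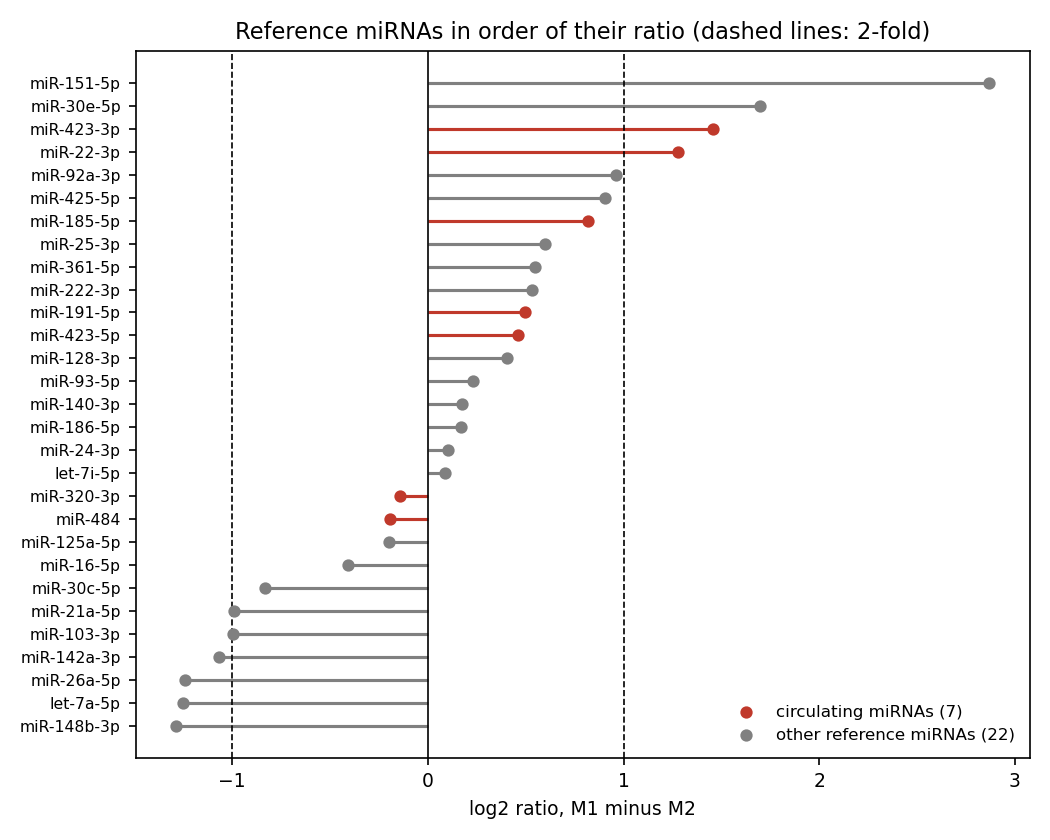
Log2 ratio, M1 minus M2 (x axis), of the 7 circulating miRNAs (red) and the 22 other reference miRNAs (grey), in order of the ratio (y axis), with dashed lines at 2-fold. Of the red points 5 lie above 0 and 2 below, and of the grey ones 13 lie above and 9 below. The grey ones run from -1.29 for miR-148b-3p to 2.87 for miR-151-5p.

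For likeness, the miRNA with a mean within 2-fold of a member and the ratio nearest to it was taken, over 2 libraries. A near ratio follows from that choice and does not show that a pair behaves alike. For miR-22-3p this was miR-155-5p, a miRNA induced by inflammatory signals in macrophages, at 2429 and 952 units and a log2 ratio of 1.35. For miR-423-3p it was miR-30e-5p, at a log2 ratio of 1.70, and for miR-484 miR-125a-5p. For miR-423-5p it was miR-342-3p with a log2 ratio of 0.45, for miR-320-3p miR-674-3p with -0.14, and for miR-185-5p miR-501-3p with 0.79. For miR-191-5p it was miR-423-5p itself. Across all miRNAs averaging at least 100 units, the 3 ratios nearest to 0 were those of miR-22-5p, miR-1198-5p (0.02, at 235 and 231 units) and miR-3473e (0.05, at 808 and 779 units).

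The ratios of the members were also set beside those of miRNAs of similar level, within 2-fold of the member's mean. miR-320-3p had 57 such miRNAs, of which 5 had a ratio nearer to 0, and miR-484 had 56, of which 7 did. For miR-191-5p the numbers were 30 and 6, and for miR-423-5p 36 and 8. The median log2 ratio of these neighbours was 0.39 for miR-191-5p and 0.32 for miR-423-5p, against -0.07 for miR-320-3p and -0.04 for miR-484. The ratios of these 4 members thus lay near the median of miRNAs of their own level. miR-185-5p stood at 0.82 beside a neighbour median of -0.07 and an upper quartile of 0.50, and miR-423-3p at 1.46 beside 0.22 and 0.99. miR-22-3p stood at 1.28 beside 0.38 and 1.18.

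Base composition and short motifs were described for the 5 members with a sequence. The content of G and C was 65.2% in miR-423-3p, 63.6% in miR-484 and 56.5% in miR-423-5p, each above the upper quartile of 54.5% of the 293 compared miRNAs with a sequence. It was 52.2% in miR-191-5p and 45.5% in miR-22-3p, on either side of their median of 47.6%. The 2 with the highest content, miR-423-3p and miR-484, had the highest and the lowest ratio of the 7. Other studies tied GGAG and GGCU, bound by hnRNPA2B1 and SYNCRIP, and CCCU to sorting of miRNAs into vesicles, so these letters were searched on the mature strand. GGAG was in 0 of the 5 members searched and in 11.3% of the compared miRNAs with a sequence. GGCU was in miR-484 and in 14.7% of them, and CCCU was in miR-423-3p and miR-484 and in 6.83%. miR-320-3p and miR-185-5p were not searched, so the counts do not tell whether they carry a motif. A match describes the letters and not a bound site.

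Markers of other sources of circulating miRNA differed between the libraries and are given beside the members. All 6 miRNAs typical of macrophages and other myeloid cells (miR-223-3p, both arms of miR-142a, miR-155-5p, miR-146a-5p and miR-21a-5p) were present, with a summed level of 21.5% of all levels in M1 exosomes against 13.4% in M2 exosomes. That sum was mostly miR-146a-5p, and without it the other 5 held 3.91% and 6.53%. Of the 6, the M1 library was the higher for 3 and the M2 library for the other 3. Of 5 erythroid miRNAs, 4 reached the minimum level. All 4 were at least 2-fold higher in the M1 library, beside 26.1% of all compared miRNAs. The other, miR-144-3p, was not compared, at 3.19 units in the M1 library and 1.33 units in the M2 library. miR-144-5p, 1 of the 4, was at 2.66 units in the M2 library, worth about 2 reads. The summed level of all 5 was 7948 units in the M1 library and 1498 units in M2 exosomes, and none was at 0 in either library. Their defining member miR-451a stood at 2182 and 329.8 units. The 2 miR-486 entries on that list overlap each other in the genome and may be counts of the same molecules. The hepatocyte miRNA miR-122-5p had a log2 ratio of 2.24. It stood at 59763.5 units in the M1 library, 8.71% of the sum, and ranked 2nd. In the M2 library it stood at 12650 units, 1.72% of the sum, and ranked 14th. It was the only miRNA on the liver list. miR-192-5p and miR-194-5p, other miRNAs linked to hepatocytes, had smaller log2 ratios of 0.35 and 0.34. Of 3 stromal miRNAs, 2 were at least 2-fold higher in the M1 library, beside the same 26.1% of all compared miRNAs. miR-145a-5p, 1 of these 2, was at 1.39 units in the M2 library, worth about 1 read. The third, miR-143-3p, went the other way, at 395 units in the M1 library and 498 in the M2 library (log2 ratio -0.33). The summed levels of the 3 were 1279.9 units in the M1 library and 744 in M2 exosomes, with none at 0. Both miRNAs of the list for endothelial cells and platelets lay within 2-fold, with summed levels of 962 and 589 units and none at 0. Several members circulate in red blood cells too, and the part of these markers in the ratios of miR-423-3p, miR-22-3p and miR-185-5p was not tested.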

How the data were processed

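Small RNA of exosomes was sequenced in 1 library per group, made with the NEBNext small RNA kit from 500 ng of Trizol RNA, per the labels' protocols. The submitters' processing notes list Bowtie2, bedtools and the mm10 assembly, with no version or role for either tool. The sources used here do not give how reads were assigned or normalized. Per the files, deposited values are log2, 1 per mature miRNA, and the scale was read off the numbers themselves: after the log was undone and 1 subtracted, low levels fell on even steps. Low values of 1 library moved with the other, so a joint normalization that varies with level was assumed, and a change shared by most miRNAs cannot be seen.

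The log2 ratio is M1 minus M2 with a pseudocount of 1, as deposited. It compares 2 libraries, and no test was run. The planned CPM values for counts were not needed because the files hold no counts. The members and lists were chosen with earlier results of these data known. Named miRNAs are the members, the other arms, list members past 2-fold or the 5 nearest to 0, and those with a shared seed. Also named are the 3 nearest to 0 of those averaging at least 100 units, the most similar miRNA per member, and markers. miR-425-3p, miR-103-3p, miR-16-5p, miR-192-5p and miR-194-5p were added after their values were seen. Loci are from RefSeq GRCm38.p6 and GENCODE M21, both GRCm38, the assembly called mm10. The procedure was tested on simulated libraries with planted changes and counting error only. These held no joint normalization and no variation between replicate libraries, so the effect of either on the ratios was not checked. Python 3.11.15, numpy 2.4.6 and pandas 2.3.3 were used.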

Additional observations from a re-analysis of the deposited data

How the results depend on the processing

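Each member kept the sign of its ratio under the 7 alternatives run on it. These were scaling to the library sum, to the sum without the 10 most abundant, centring at the median, and pseudocounts of 0.1 and 10. The others were centring at the median of similar levels with the members kept in or left out of it, both chosen after seeing the data. At the members' levels a pseudocount hardly acts, and scaling to a sum or centring at the median moves all ratios alike. Kept signs under these are therefore a weak check. The ratio ran from 1.23 to 1.56 for miR-423-3p, 0.75 to 0.92 for miR-185-5p, 0.03 to 0.59 for miR-191-5p, 0.09 to 0.56 for miR-423-5p, -0.21 to -0.04 for miR-320-3p and -0.26 to -0.10 for miR-484. For miR-22-3p it ran from 0.85 to 1.37, and centring at similar levels, at 0.85 with the members kept in and 0.90 with them left out, left 1 member past 2-fold in place of 2; the cause was not tested. The numbers of all miRNAs at least 2-fold higher in M1 and in M2 exosomes followed the minimum, which sets how many are tested: 201 and 229 with none, 37 and 33 at 100 units, 55 and 37 with the minimum in both libraries. As a reference, miR-423-3p gave 19 and 210, miR-22-3p 23 and 190, miR-185-5p 50 and 151 and the mean of the members 58 and 125, by construction. Of the 22 other reference miRNAs, those higher in M1 exosomes numbered 4 with scaling to the sum and 1 with either stricter minimum, and at 1.5-fold 5 were higher in M1 and 7 in M2 exosomes. No paired analysis was possible because a single library stands for each cytokine, which also means that none can be left out. Read totals are unknown, so no interval is given for single values.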
